A study of Homo sapiens with 2 samples.

Results

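Activator protein 1 (AP-1) is a family of transcription factors built as pairs of JUN and FOS proteins, and the 5 genes described here encode the JUN proteins JUN, JUNB and JUND and the FOS-like proteins FOSL1 (FRA-1) and FOSL2 (FRA-2). The data are lists of regions called in chromatin immunoprecipitation sequencing (ChIP-seq) of KYSE510, an established line of human esophageal squamous carcinoma, with 1 library for MLL3 and 1 for GRHL2, each against input DNA. MLL3 (KMT2C) methylates histones at enhancers, and GRHL2 is a Grainyhead-like factor that binds DNA in epithelial cells; the cells grew in RPMI-1640 with serum, no drug or siRNA is named for these libraries, and the siRNA experiments of the same study were not analysed here. A region belonged to a gene when its summit lay in the gene or in the 50 kb on either side of it. This gave 11 of the 12150 MLL3 regions and 59 of the 152864 GRHL2 regions on the assembled chromosomes. No factor had a replicate and the read depth is unknown, so no value carries an error between samples and no difference was tested. Binding is not expression, and no expression of these genes was measured here.

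JUN proteins pair with each other or with FOS proteins through leucine zippers, whereas FOSL1 and FOSL2 need a JUN partner to bind DNA. The dimers recognise the AP-1 element TGAGTCA (reverse complement TGACTCA) and the related cyclic AMP element TGACGTCA. In squamous epithelia AP-1 is known as a regulator of keratinocyte differentiation genes and of enhancers, and FOSL1 is often studied in invasive carcinoma cells.

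The windows covered chromosome 1 from 59196001 to 59300000 for JUN, chromosome 19 from 12852001 to 12954000 for JUNB, chromosome 19 from 18341001 to 18442000 for JUND, chromosome 11 from 65610001 to 65718000 for FOSL1 and chromosome 2 from 28566001 to 28688000 for FOSL2 (all hg19, 1-based). JUN, JUND and FOSL1 lie on the minus strand, JUNB and FOSL2 on the plus strand. Gene starts and ends were set to whole kb, so a distance to a gene is good to about 1 kb, and "upstream" close to a start can fall on either side of it. In RefSeq's gene table (GRCh38.p14, used for neighbours only) 8 other protein-coding genes lie within 50 kb of JUNB, 4 of JUND and 10 of FOSL1, and 0 of JUN and FOSL2. Which gene a region acts on was not tested.

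The promoters are shown because the results turn on which gene starts carry MLL3: JUNB and JUND had an MLL3 region within 2 kb of the start, JUN and FOSL2 only GRHL2 regions. Each sequence is the 250 bases before the start in RefSeq's promoter table (4 of the 5 genes matched; FOSL1 did not), 5′ to 3′ on the gene's strand. They lie in GRCh38.p14 at chr1:58784048-58784297 (minus, JUN), chr19:12791236-12791485 (plus, JUNB), chr19:18281623-18281872 (minus, JUND) and chr2:28392608-28392857 (plus, FOSL2), and were not aligned to the hg19 regions. Capitals mark matches to the motifs described after them.
JUN: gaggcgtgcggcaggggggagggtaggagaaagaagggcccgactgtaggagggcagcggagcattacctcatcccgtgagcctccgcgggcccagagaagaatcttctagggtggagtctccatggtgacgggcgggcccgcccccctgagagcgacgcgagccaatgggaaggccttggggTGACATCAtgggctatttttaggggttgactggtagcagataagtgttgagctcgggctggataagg
JUNB: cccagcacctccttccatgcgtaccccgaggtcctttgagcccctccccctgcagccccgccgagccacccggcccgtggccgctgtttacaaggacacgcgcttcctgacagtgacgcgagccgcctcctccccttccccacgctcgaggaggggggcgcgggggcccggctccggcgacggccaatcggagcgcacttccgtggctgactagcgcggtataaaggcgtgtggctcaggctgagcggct
JUND: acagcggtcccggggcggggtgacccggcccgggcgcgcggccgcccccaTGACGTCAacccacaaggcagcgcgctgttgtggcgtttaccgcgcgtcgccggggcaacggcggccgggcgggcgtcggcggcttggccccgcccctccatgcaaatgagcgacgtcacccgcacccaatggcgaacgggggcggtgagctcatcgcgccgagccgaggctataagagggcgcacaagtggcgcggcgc
FOSL2: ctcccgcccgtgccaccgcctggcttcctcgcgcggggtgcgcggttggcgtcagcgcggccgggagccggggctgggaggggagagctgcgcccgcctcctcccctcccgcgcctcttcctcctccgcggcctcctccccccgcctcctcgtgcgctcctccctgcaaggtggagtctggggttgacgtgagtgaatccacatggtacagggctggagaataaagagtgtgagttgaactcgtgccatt

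The promoters of JUN and JUND each held a match to an AP-1-type element, and no Grainyhead-like core was found in the 4 windows of 250 bases. JUN carried TGACATCA starting 67 bases before the start, a variant element known from this promoter and added to the search after the sequence had been read. The elements planned beforehand had no match in the JUN sequence. Other variant elements were not searched, so the capitals do not mark every possible site. JUND carried the cyclic AMP element TGACGTCA starting 200 bases before the start. Both strands were searched, and of the table's 35116 promoters a share of 2.37% held TGACATCA or its reverse complement TGATGTCA and 1.65% held TGACGTCA in the same 250 bases. TGAGTCA or TGACTCA occurred in 4.20% of them and in none of the 4 members, although FOSL2 had TGACTCA just past its start, from base 5 to base 11 of the transcript. The Grainyhead-like core AACCNGTT (reverse complement AACNGGTT) occurred in 1.49% of all promoters and the relaxed form AACNNGTT, which includes it, in 3.0%. The 4 promoters were 62.0% (JUN) to 74.8% (JUND) G and C, against a median of 58.0% over the table. A match describes these letters and does not show a bound site.

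MLL3 was listed around all 5 AP-1 genes, with more regions at FOSL2 than at any other of them. FOSL2 had 5 MLL3 regions, JUN and JUNB had 2 each, and JUND and FOSL1 had 1 each. All 5 windows (exact 95% interval of the share 47.8 to 100%) thus held an MLL3 summit, against 22.9% of the 30354 bins of 100 kb on chromosomes 1 to 22 and X. The 5 genes were chosen by name and are not a random sample, so the interval covers counting only. With flanks of 20 kb, 4 windows held an MLL3 region. The windows, 101 to 122 kb long, were centred on genes, which the bins were not, and the part of this in the excess was not tested. Per Mb there were 20.5 MLL3 regions in the windows and 3.93 over the whole list.

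GRHL2, whose list is longer and less strict, had 15 regions at FOSL1, 13 each at JUN and FOSL2, 12 at JUNB and 6 at JUND. The significance is given as the authors' −log10 q, and a value of 2 stands for a q of 0.01. Of the 59 GRHL2 regions, 23 (39.0%, exact 95% interval 26.5 to 52.6%) reached a −log10 q of 2, against 19.7% of the whole list, and 30 (50.8%, interval 37.5 to 64.1%) had a q above 0.05, against 68.9% of the list. The MLL3 list ends at a stricter level, with a lowest −log10 q of 2.07, against 0 in the GRHL2 list. Among the 11 MLL3 regions of the windows the lowest was 3.61. Numbers of regions, and ranks of a region within its list, therefore cannot be compared between the factors. At a −log10 q of at least 2, GRHL2 had 6 regions at FOSL2, 5 each at JUN and JUNB, 4 at FOSL1 and 3 at JUND, or 42.8 per Mb against 9.73 per Mb in the whole list. As for MLL3, the windows were centred on genes and the list covers the whole genome, and the part of this was not tested.

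**Figure D1:**
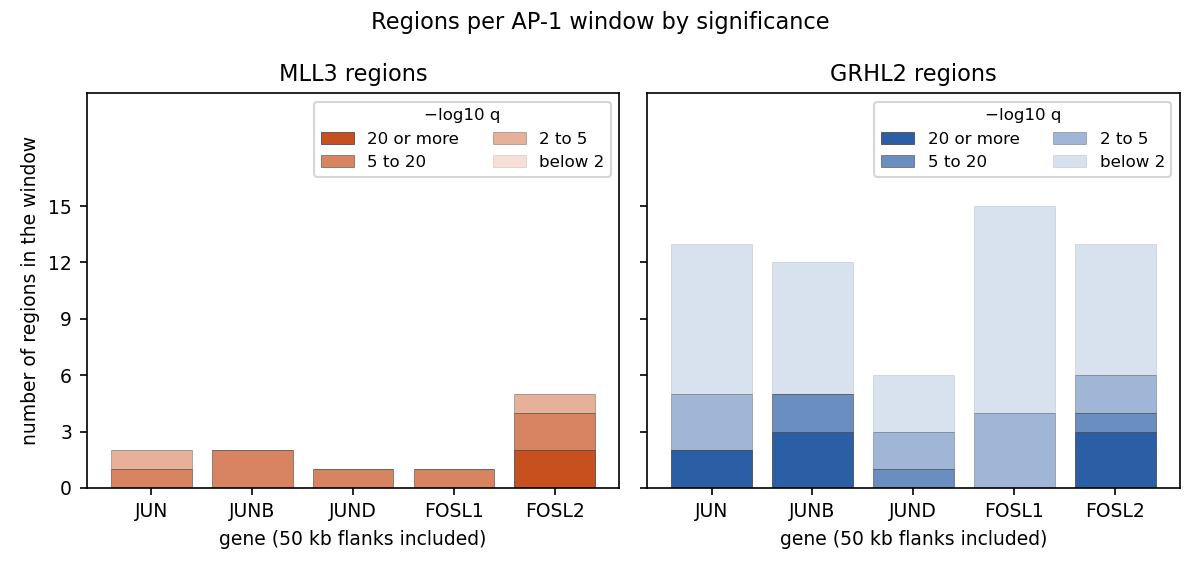
Number of MLL3 regions (left panel) and GRHL2 regions (right panel) in each AP-1 window, stacked by the authors' −log10 q. FOSL2 had the most MLL3 regions (5), and FOSL1 had the most GRHL2 regions (15), of which 11 were below a −log10 q of 2.

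The strong GRHL2 regions stood at JUN, JUNB and FOSL2, and none was listed at JUND or FOSL1. A −log10 q of 20 or more was reached by 3 GRHL2 regions at JUNB, 3 at FOSL2 and 2 at JUN, with fold enrichments of 7.85 to 37.1. These were 8 of the 59 GRHL2 regions, against 6087 of the 152864 in the whole list. The windows were centred on genes, and the part of this was not tested. The fold enrichment is the authors' ratio of summit signal to the signal expected locally. At JUND the highest GRHL2 fold was 5.94 and at FOSL1 3.69. These 8 strong regions were split by MLL3: both at JUN and 2 of the 3 at FOSL2 overlapped an MLL3 region, and none of the 3 at JUNB did. That is 4 of 8 (50%, exact 95% interval 15.7 to 84.3%), against 51.7% of the 6087 GRHL2 regions of that significance in the whole list. GRHL2 folds were 19.9 to 33.3 in the 4 with MLL3 and 7.85 to 37.1 in the 4 without it, so the ranges overlapped.

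**Figure D2:**
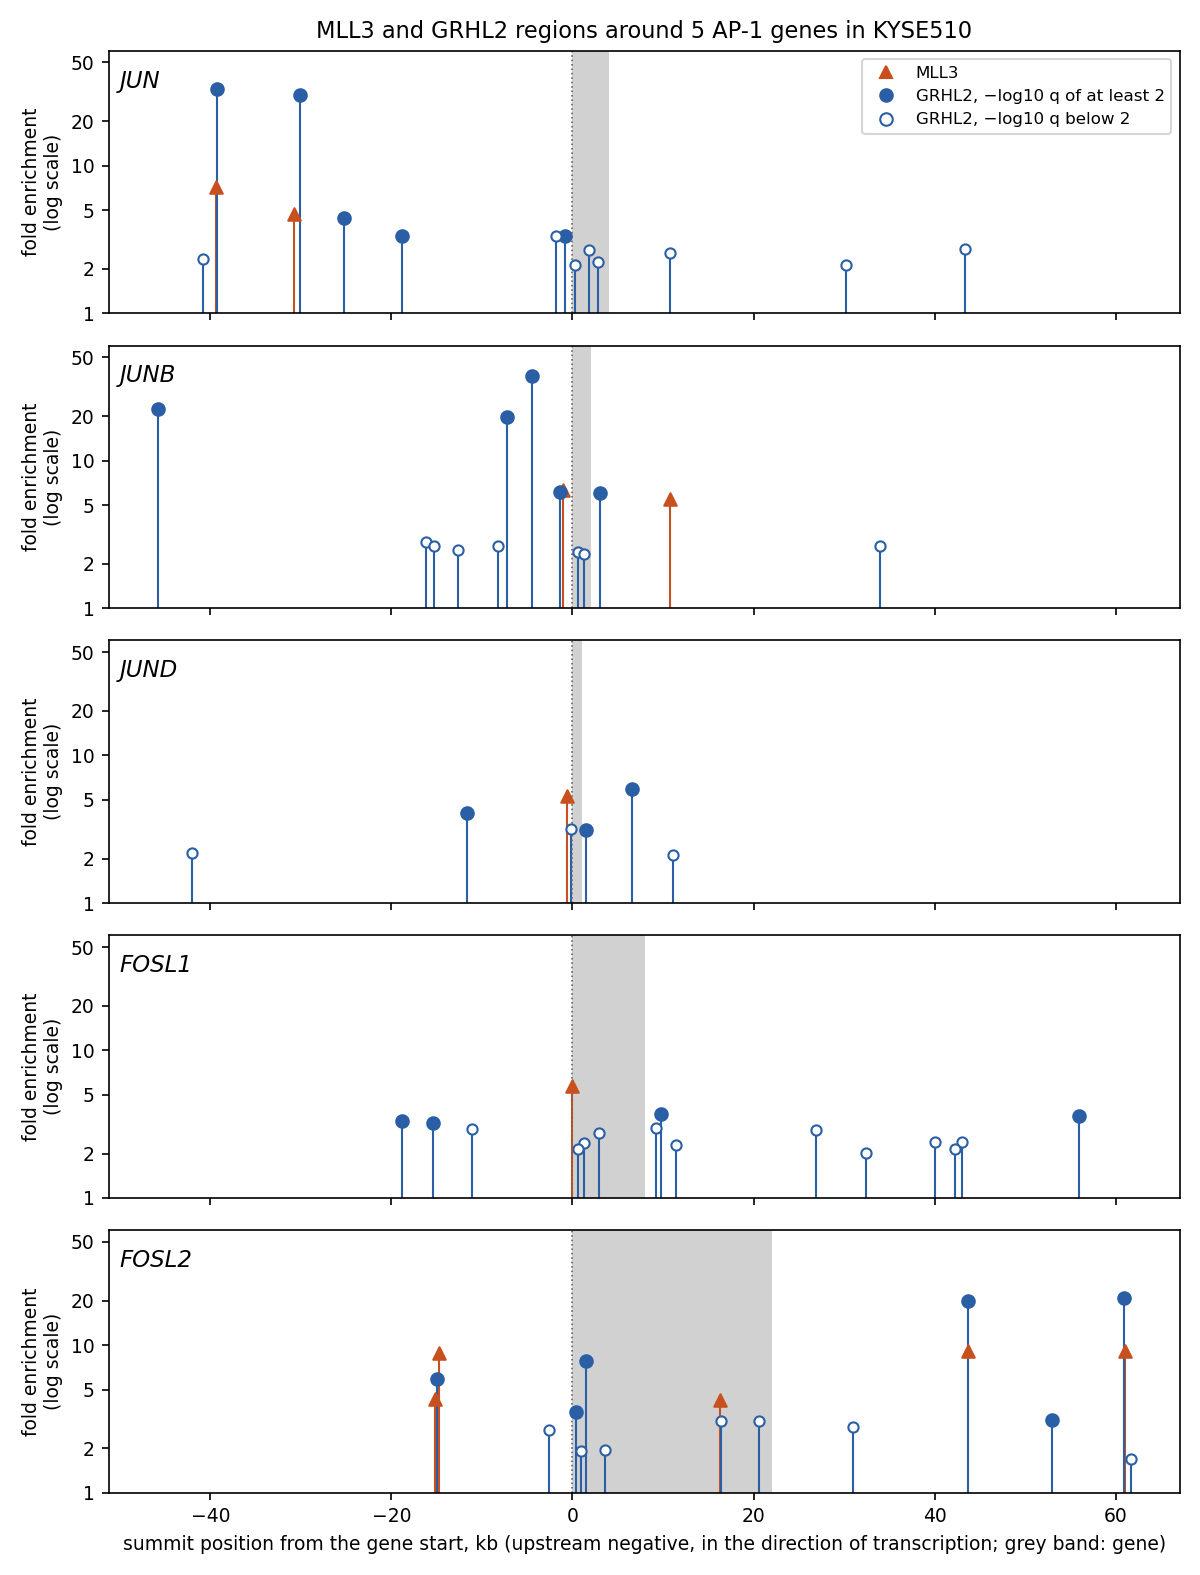
Fold enrichment (log axis) of every MLL3 region (triangles) and GRHL2 region (circles, filled at a −log10 q of at least 2) against the distance of its summit from the gene start in kb, with upstream to the left and the gene as a grey band. At JUN and FOSL2 the highest GRHL2 summits, with folds of 19.9 to 33.3, have an MLL3 summit beside them, and at JUNB the GRHL2 summits with folds of 37.1, 22.2 and 19.6 have none.

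JUN, the founding member of the family, had no MLL3 region in the gene or within 30 kb of its start. Its 2 MLL3 regions lay upstream, 30.8 kb from the start (59280777 to 59281035) with a fold of 4.72 and 39.4 kb from the start (59289122 to 59289532) with a fold of 7.20. Each lay inside a GRHL2 region that was among the strongest of the 5 windows. The GRHL2 region around the nearer one was 3194 bp wide (59279319 to 59282512), the widest of the 59, and had a fold of 30.0 and a −log10 q of 117. The GRHL2 region around the farther one (59288556 to 59289839) had a fold of 33.3 and a −log10 q of 125. The MLL3 and GRHL2 summits were 754 bp apart at the nearer site and 130 bp apart at the farther one. The nearer MLL3 region was thus weak for its list, with 14.0% of MLL3 regions below its fold, on a GRHL2 region whose fold exceeded that of 98.7% of GRHL2 regions. The third GRHL2 region by fold (4.39, −log10 q 4.36) was 25.2 kb upstream and carried no MLL3. Around the start itself GRHL2 had 4 low regions within 2 kb, with folds of 2.12 to 3.35, of which only that 0.8 kb upstream (59250060 to 59250905, fold 3.35, −log10 q 2.43) passed a −log10 q of 2.

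JUNB, known as a JUN protein that can oppose the growth-promoting action of JUN, had the GRHL2 region of highest fold in the 5 windows, and its 3 strongest GRHL2 regions carried no MLL3. GRHL2 reached a fold of 37.1 at 4.5 kb upstream (12896824 to 12898133, −log10 q 181), 22.2 at 45.8 kb upstream (12855917 to 12856665) and 19.6 at 7.2 kb upstream (12894394 to 12895156). From these summits the nearest MLL3 summits were 3.3, 44.6 and 6.1 kb away, in the same order. The MLL3 region nearest to the start was 1.1 kb upstream (12900723 to 12901111) with a fold of 6.32. It overlapped a GRHL2 region of fold 6.17 (12900292 to 12901342, −log10 q 11.4), with 314 bp between the summits. Within their own lists, which end at unlike levels, 47.0% of MLL3 regions and 93.7% of GRHL2 regions had a lower fold than these. The other MLL3 region at JUNB, 8.8 kb past the gene end (12912635 to 12912895), had a fold of 5.47 and a −log10 q of 7.04. It was the only one of the 11 that overlapped no GRHL2 region at all, and the nearest GRHL2 summit was 7.8 kb away. A factor missing from its list may still be present below the list's threshold. In the gene, GRHL2 had 2 regions with folds of 2.40 and 2.32, both below a −log10 q of 2, and a region of fold 6.05 lay 1.0 kb past its end.

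JUND, a JUN gene known for steady expression across many tissues, had its 1 MLL3 region at the gene start. It spanned 18392460 to 18392706, 0.6 kb upstream, with a fold of 5.32 and a −log10 q of 7.81. The GRHL2 region that overlapped it (18391981 to 18392728) had a fold of 3.16 and a −log10 q of 1.62, and its summit was 402 bp from that of MLL3. Within their own lists, which end at unlike levels, 28.3% of MLL3 regions and 71.3% of GRHL2 regions had a lower fold than these. The 2 GRHL2 regions of higher fold at JUND lay away from it, 5.6 kb past the gene end (fold 5.94, −log10 q 8.99) and 11.6 kb upstream (fold 4.08, −log10 q 4.61), and neither overlapped MLL3.

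FOSL1 also had its MLL3 at the start. Its only MLL3 region lay at the gene start (65667916 to 65668116), was 201 bp wide, the narrowest of the 11, and had a fold of 5.69 and a −log10 q of 6.73. The GRHL2 region overlapping it (65667410 to 65668010) had a fold of 2.14 and a −log10 q of 0.277, which is a q above 0.05, and its summit was 629 bp away. No GRHL2 region at FOSL1 reached a −log10 q of 5. The highest were 1.8 kb past the gene end (fold 3.69), 48.0 kb past it (fold 3.60) and 18.8 kb upstream (fold 3.30), and none of these overlapped MLL3.

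FOSL2, the gene of FRA-2 and the longest of the 5, carried MLL3 at 4 places, none of them the start. The highest folds of MLL3 in the 5 windows were here: 9.14 at 39.0 kb past the gene end (28676772 to 28677214), 9.11 at 21.7 kb past it (28659497 to 28659924) and 8.86 at 14.7 kb upstream (28601086 to 28601549). Each of these exceeded 73.9 to 76.1% of the whole MLL3 list. Both sites past the gene end coincided with strong GRHL2 regions, of fold 20.8 (28676332 to 28677274, −log10 q 90.7) and 19.9 (28659257 to 28660868, −log10 q 69.6), with summits 94 and 19 bp apart. The upstream site differed. A GRHL2 region of 1515 bp (28600015 to 28601529, fold 5.89, −log10 q 14.0) held 2 MLL3 regions there, that of fold 8.86 and a weaker one of fold 4.35 (28600446 to 28600885), and its summit lay between theirs, 314 and 146 bp away. Over the whole list 550 of the 9404 shared GRHL2 regions held 2 or more MLL3 regions. The fifth MLL3 region was in the gene, 16.3 kb from the start (28632256 to 28632464), with a fold of 4.25, the lowest of the 11, and a GRHL2 region of fold 3.06 and −log10 q 1.64 had its summit 30 bp away. Near the start GRHL2 alone was listed, most strongly 1.5 kb into the gene (28617266 to 28618046, fold 7.85, −log10 q 24) and, closest to the start, 0.4 kb into it (28616015 to 28616583, fold 3.52, −log10 q 2.32).

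Placed side by side, the genes differed in where MLL3 lay. At JUNB, JUND and FOSL1 an MLL3 region stood within 2 kb of the start, with folds of 6.32, 5.32 and 5.69. The 8 MLL3 regions farther out were 10.8 to 61.0 kb from the start of their AP-1 gene. They had folds of 4.25 to 9.14, a range that includes the 3 near the starts. Distances to the starts of neighbouring genes were not measured, so a region far from an AP-1 start may lie at the start of another gene. GRHL2 was listed within 2 kb of all 5 starts, in 14 regions with folds of 1.91 to 7.85, of which 5 passed a −log10 q of 2. At FOSL1 none did, as its regions there had −log10 q values of 0.484 and 0.277. The share of all gene starts with a GRHL2 region that near was not computed. Of the 8 GRHL2 regions past a −log10 q of 20, 7 lay 4.5 to 60.9 kb from the start of their AP-1 gene, with folds of 19.6 to 37.1. The GRHL2 partners of MLL3 near the starts had folds of 6.17 at JUNB, 3.16 at JUND and 2.14 at FOSL1. With so few regions these are descriptions and were not tested.

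Nearly all MLL3 regions of the AP-1 genes met a GRHL2 region, as in the list as a whole. Of the 11, 10 overlapped a GRHL2 region by at least 1 bp (90.9%, exact 95% interval 58.7 to 99.8%), against 85.0% of all MLL3 regions. When the GRHL2 region had to reach a −log10 q of 2, 7 of 11 did (63.6%, interval 30.8 to 89.1%), against 68.7%. The regions lost by this were those at the starts of JUND and FOSL1 and that inside FOSL2. Both shares were near the background. From the other side, 9 of the 59 GRHL2 regions carried MLL3 (15.3%, interval 7.22 to 27.0%), against 6.15% of all GRHL2 regions. Among regions that reached a −log10 q of 2 the shares were 6 of 23 (26.1%, interval 10.2 to 48.4%) in the AP-1 windows and 24.5% in the whole list. The intervals cover the counting of regions only, and neighbouring regions of 1 library are not independent.

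**Figure D3:**
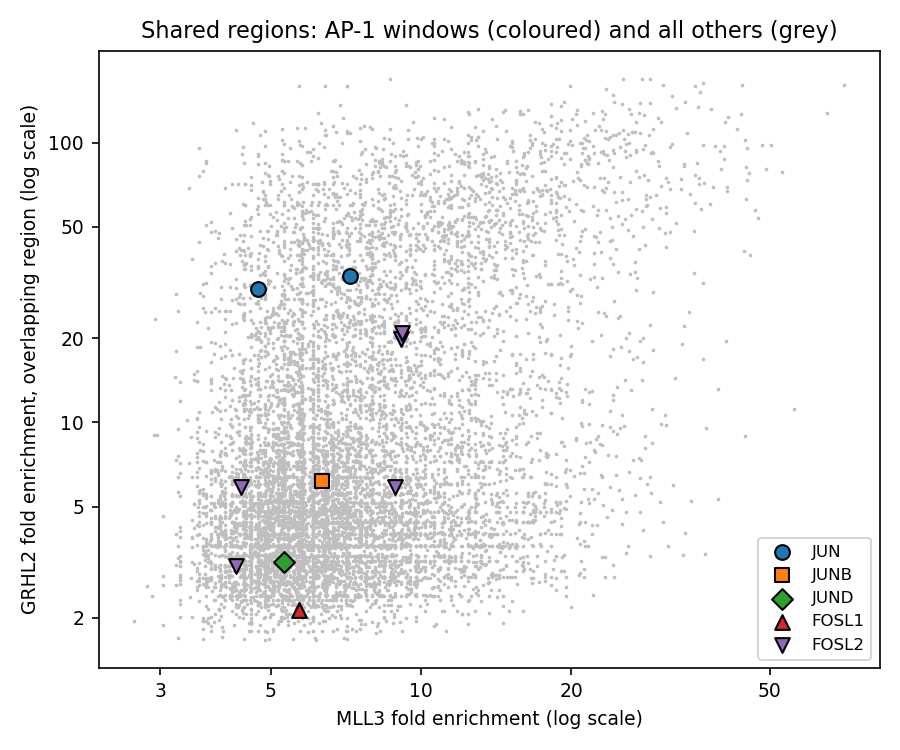
Fold enrichment of each shared MLL3 region against that of the GRHL2 region it overlaps, both on log axes, for the 10 shared regions of the AP-1 windows (symbols by gene) and the other shared MLL3 regions (grey). The JUN symbols stand high, at GRHL2 folds of 30.0 and 33.3 with MLL3 folds of 4.72 and 7.20. Those of JUND, FOSL1 and the MLL3 region inside FOSL2 stand low, at GRHL2 folds of 3.16, 2.14 and 3.06.

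In strength the MLL3 regions of these genes were ordinary. Their median fold was 5.69 (quartiles 5.02 and 8.03), against 6.49 (5.26 and 8.91) over the whole list, and 4 of the 11 were above the median of the list. The 4 were the 3 regions of folds 8.86 to 9.14 at FOSL2 and that of fold 7.20 at JUN. The highest, 9.14, compares with a maximum of 70.5 in the list. The median fold of the 59 GRHL2 regions was 2.88, against 2.77 over the whole list. Among those that reached a −log10 q of 2 it was 5.89 in the AP-1 windows, with an upper quartile of 19.8, and 4.54 with an upper quartile of 7.67 in the whole list. The GRHL2 partners of the 10 shared MLL3 regions had a median fold of 6.03, against 5.76 over all 10327 shared MLL3 regions.

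**Figure D4:**
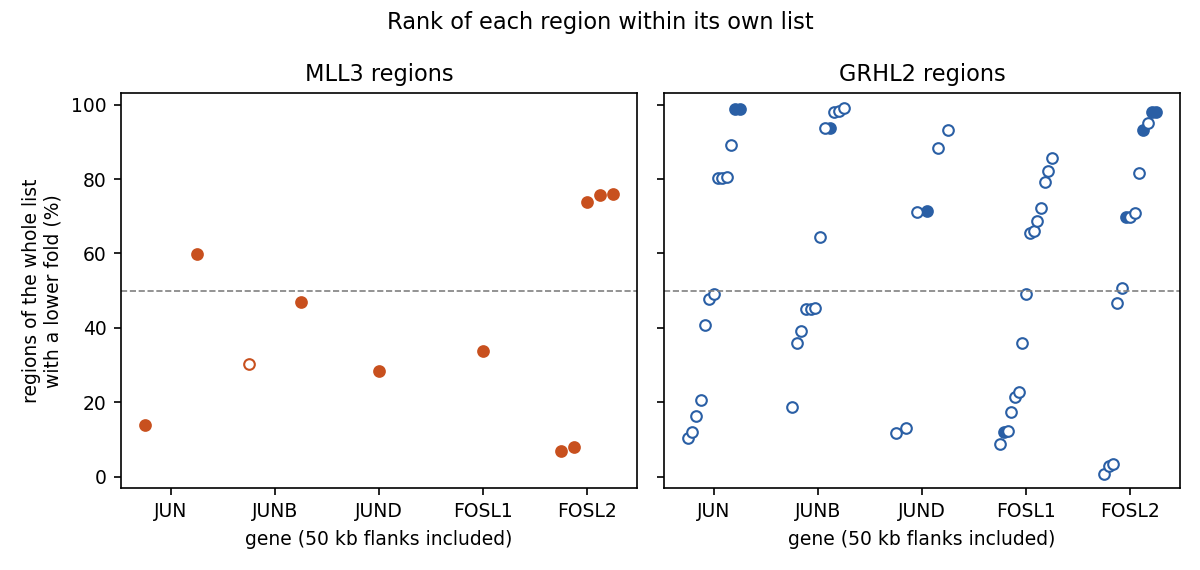
For each MLL3 region (left panel) and GRHL2 region (right panel), the share of its own whole list with a lower fold enrichment, by gene; filled points overlap a region of the other factor and the dashed line marks 50%. No MLL3 point lies above 76.1%, and the top GRHL2 points at JUN, JUNB and FOSL2 lie above 98%. The lists end at unlike levels, so ranks cannot be compared between the panels.

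Summits of the 10 shared MLL3 regions were a median of 230 bp from the nearest GRHL2 summit, against 104 bp in the whole list, and the spread among them was wide, at 19 to 754 bp. A GRHL2 summit lay within 100 bp for 3 of the 10 (30.0%, exact 95% interval 6.67 to 65.2%), against 49.1% of shared MLL3 regions in the list. These 3 were all at FOSL2, and none was at JUN, JUNB, JUND or FOSL1. The MLL3 regions were 201 to 464 bp wide, with a median of 389 bp against 375 bp in the list. The GRHL2 regions had a median width of 567 bp, against 361 bp in the list.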

How the data were processed

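ChIP-seq regions of MLL3 and GRHL2 in KYSE510 cells were used as the authors deposited them, in 1 narrowPeak list per factor called against input. The submitters' processing notes name BWA, Picard, MACS2, deepTools and build hg19; for versions, settings and thresholds, nothing is given in the sources used here. Per region the authors deposited a fold enrichment (a ratio), −log10 p and −log10 q values, and a score, which was not used. The files hold no read counts, so depth is unknown. Regions on other contigs (46 MLL3 and 345 GRHL2 lines) were left out. Summits were assigned to the gene windows, and sharing meant an overlap of at least 1 bp. Intervals of shares are exact Clopper-Pearson 95% intervals. The overlap code was tested on simulated lists. Every MLL3 region, the 3 GRHL2 regions of highest fold and those nearest to the gene start are described per window. FOS and other AP-1 partner genes were not placed, for want of an hg19 annotation. The members, lists and settings were chosen with earlier results of these data known. Python 3.11.15, numpy 2.4.6, pandas 2.3.3, scipy 1.17.1 and matplotlib 3.10.9 were used.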

Additional observations from a re-analysis of the deposited data

How the results depend on the processing

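Of 39 alternative settings, 30 left the value within the limits set for it (a count within 1.5 times, a share or median within its exact 95% interval) and 9 moved it. Flanks of 20 kb left 7 MLL3 regions and flanks of 100 kb gave 91 GRHL2 regions. When regions of either list had to reach a −log10 q of 2, 23 GRHL2 regions remained, with a median fold of 5.89. When they had to reach 5 there were 12 GRHL2 regions with a median fold of 19.8, and 41.7% of them overlapped MLL3. For the whole list that share was not computed at 5. With GRHL2 alone cut, it was 24.5% at a −log10 q of 2 and 51.7% at 20. The 36 GRHL2 regions below a −log10 q of 2 had folds of 1.69 to 3.34, so leaving them out raised the median. With flanks of 20 or 100 kb the GRHL2 median fold was 2.91. When sharing meant summits within 100 bp, 27.3% of MLL3 and 5.08% of GRHL2 regions were shared. Among MLL3 regions that overlap a GRHL2 region, 30.0% in the windows and 49.1% in the whole list had a GRHL2 summit that near. The GRHL2 share of the whole list was not computed for this setting. No paired analysis was possible because the study gave only 1 library for each factor. Unknown read depth limits both lists.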

Other observations

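Beyond the windows, in the next 50 kb on each side, MLL3 was listed around JUN and JUND and not around JUNB, FOSL1 or FOSL2; these regions were looked at after the windows had been described. At JUN there were 2, with a fold of 7.08 at 56.8 kb past the start (59193030 to 59193420) on a GRHL2 region of fold 5.15, and a fold of 5.35 at 64.8 kb upstream (59314434 to 59315005) on a GRHL2 region of fold 3.58. At JUND there were 3, all upstream. That at 84.0 kb (18475652 to 18476225, fold 6.38) had its summit 50 bp from a GRHL2 summit of fold 17.0, and those at 92.7 kb (18484484 to 18484971, fold 8.56) and 93.2 kb (18485134 to 18485449, fold 3.23) shared a GRHL2 region of fold 18.0. JUND, whose window held no GRHL2 region past a −log10 q of 20, thus had 2 of them 84.1 and 93.4 kb upstream, with −log10 q values of 52.1 and 87.3. All 5 of these MLL3 regions overlapped GRHL2, near the 85.0% of all MLL3 regions that did. In these outer flanks lay 32 GRHL2 regions, of which 2 passed a −log10 q of 20, against 6087 of the 152864 in the whole list.

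The region nearest to a window edge was, for MLL3, 10.6 kb inside (fold 7.20, at JUN) and 2.8 kb outside (fold 7.08, at JUN). For GRHL2 it was 2.0 kb inside (fold 3.60, at FOSL1) and 1.8 kb outside (fold 2.32, at JUND).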
